A study of Mus musculus with 13 samples.

Results

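Pttg1, Gdpd3, Mcts1, Lyplal1, Uqcc6, Adcy1, Ctse, Lgr6, Kif1a and Kcnq5 are 10 genes whose RNA differed in the same direction between Hmox2-/- and Hmox2+/+ mice in aortic endothelial cells (ECs) and in whole hearts. They are 10 of the 36109 genes listed and of the 13351 genes tested in both tissues. The members were chosen by these very values, the counts of Hmox2-/- and Hmox2+/+ libraries in both tissues, among genes regarded as single-copy. Their differences between the genotypes are therefore given as a description, with no test, and support nothing. In Hmox2-/- mice 3 of the 10 (Pttg1, Gdpd3 and Mcts1) were higher and 7 were lower. The largest fold changes were those of Gdpd3 in both tissues, of Pttg1 in heart and of Adcy1 in ECs.

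The study asked how loss of Hmox2, which encodes the constitutive heme oxygenase, alters transcription in ECs and heart. Poly(A) RNA was sequenced from aortic ECs of Hmox2+/+ mice (n = 3, here EC WT 1 to 3) and Hmox2-/- mice (n = 3, EC KO 1 to 3). It was also sequenced from fast-frozen whole hearts of Hmox2+/+ mice (n = 4, heart WT 1 to 4) and Hmox2-/- mice (n = 3, heart KO 1 to 3). All mice were kept in room air with no other treatment, and the methods call the Hmox2+/+ mice wild-type littermates. The sequenced mice are described as young. Their exact age, sex and strain background are not given in the sources used here, nor is the number of founders of the Hmox2-/- line. An effect of the Hmox2 deletion and one of any other inherited difference between the lines cannot be told apart. EC and heart libraries are described as matched, but the labels do not say which of them share a mouse, and nothing says how many litters they came from. The p-values below measure only the spread between these libraries.

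The members do unlike things. Pttg1 encodes securin, which holds back separase until sister chromatids may part. Gdpd3 is a lysophospholipase D that releases lysophosphatidic acid and N-acylethanolamines, and Lyplal1 belongs to the acyl-protein thioesterases, which remove fatty acids from proteins. Mcts1 works with Denr in ribosome recycling and reinitiation of translation, and Uqcc6 is a small mitochondrial protein needed to assemble respiratory complex III. Adcy1 is an adenylyl cyclase that calcium and calmodulin stimulate, Lgr6 is a receptor for R-spondins in WNT signalling, and Ctse is the aspartic protease cathepsin E. Kif1a is a kinesin-3 motor that carries synaptic vesicle precursors along axons, and Kcnq5 is a voltage-gated potassium channel found in neurons and vascular smooth muscle.

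The genes lie on 5 chromosomes of the GRCm39 build, with 5 of the 10 on chromosome 1 and 2 on chromosome 11, and none on chromosome 16, which carries Hmox2. Of the 13351 genes tested in both tissues, 778 lie on chromosome 1. On chromosome 1 are Kcnq5 (21468627 to 22032166, minus strand), Kif1a (92942641 to 93029752, minus strand), Ctse (131566009 to 131603243, plus strand), Lgr6 (134911039 to 135033100, minus strand) and Lyplal1 (185763147 to 185849526, minus strand). On chromosome 11 are Adcy1 (7013330 to 7128506, plus strand) and Pttg1 (43311071 to 43321000, minus strand). Gdpd3 is on chromosome 7 (126365506 to 126374821, plus strand), Uqcc6 on chromosome 10 (82455672 to 82466096, minus strand) and Mcts1 on chromosome X (37689298 to 37702404, plus strand). All 10 are annotated as protein coding.

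Promoter sequence before the annotated start is shown for the 3 genes that were higher in Hmox2-/- mice and for Uqcc6, whose transcripts separate at the first exon, and Adcy1, which had the largest loss. The stretches are from RefSeq on the GRCm38.p6 build, 5′ to 3′, and keep to the bases outside annotated exons. That of Pttg1 precedes the start of Pttg1-204 and lies in the first intron of Pttg1-202, Pttg1-203 and Pttg1-205. Capitals mark matches on either strand to the E-box CACGTG, the shorter ACGTG that it contains, the GC box GGGCGG, the motif CCAAT, the motif TATAAA, the cyclic AMP element core TGACG, the antioxidant element core TGACNNNGC and the cell cycle element TTTGAA.
Gdpd3 promoter, chr7:126766164-126766333, plus strand: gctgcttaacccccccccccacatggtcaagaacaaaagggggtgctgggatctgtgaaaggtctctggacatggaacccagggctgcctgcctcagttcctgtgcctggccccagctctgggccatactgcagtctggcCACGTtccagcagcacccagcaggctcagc
Pttg1 promoter, chr11:43426119-43426173, minus strand: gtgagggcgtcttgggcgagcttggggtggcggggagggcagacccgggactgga
Mcts1 promoter, chrX:38600221-38600420, plus strand: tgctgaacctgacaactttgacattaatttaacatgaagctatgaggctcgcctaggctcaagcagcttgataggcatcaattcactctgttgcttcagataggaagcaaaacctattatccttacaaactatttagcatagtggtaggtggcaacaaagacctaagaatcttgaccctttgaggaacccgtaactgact
Uqcc6 promoter, chr10:82623346-82623478, minus strand: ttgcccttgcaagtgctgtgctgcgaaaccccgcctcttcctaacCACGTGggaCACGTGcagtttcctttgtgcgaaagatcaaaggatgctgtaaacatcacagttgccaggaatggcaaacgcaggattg
Adcy1 promoter, chr11:7063183-7063329, plus strand: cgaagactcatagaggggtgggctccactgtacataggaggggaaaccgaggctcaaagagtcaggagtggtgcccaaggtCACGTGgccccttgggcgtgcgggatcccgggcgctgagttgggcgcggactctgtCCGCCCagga

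RefSeq gave promoter entries for 9 of the 10 genes, 12 entries in all. Kcnq5, Kif1a and Mcts1 had 2 entries each, and the percentages below are per promoter, not per gene. Ctse had none. In the 250 bases of the entries, CACGTG was found in Adcy1, in Kif1a and at 2 places in Uqcc6 (205 and 196 bases before the start). Of all 32851 promoters 6.02% hold it. The Kif1a match is in the entry nearest the start of Kif1a-201, in the first intron of Kif1a-204, the leading transcript. The entry that overlaps the start of Kif1a-204 has none. The shorter ACGTG also occurred in Gdpd3 (110 bases before) and Pttg1 (119 bases before the start of Pttg1-204), against 16.6% of all promoters. The Pttg1 match is outside the stretch shown, which runs from 192 to 138 bases before that start. GGGCGG was present in Adcy1 at 3 places, in Lgr6, in Lyplal1 and in Uqcc6 (32.7% of all promoters), and CCAAT in Kcnq5, Mcts1 and Uqcc6 (33.8% of all promoters). The Mcts1 match is not in the stretch shown but in the other entry, which lies in the first intron of Mcts1-201. That of Kcnq5 is in the entry 709 bases from the nearest annotated start. TTTGAA occurred in these same entries of Kcnq5 and Kif1a (16.0%), and TGACG in the other entry of Kif1a, in Lyplal1 and in Uqcc6 (17.8%). TATAAA (12.4%) and TGACNNNGC (10.2%) were found in none of the 12 entries. These are matches of letters only, and no motif was common to the 3 genes that were higher or to the 6 with an entry that were lower.

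Libraries held 26067147 to 31619776 estimated counts, except heart WT 1 with 7268626. Levels are given as CPM, the counts of a gene relative to the library's total after scaling by the trimmed mean of M-values (TMM) over all 13 libraries. Hmox2, which checks the genotype labels, was 57.7, 50.4 and 48.7 CPM in ECs of Hmox2+/+ mice and 9.40, 9.84 and 10.8 CPM in ECs of Hmox2-/- mice. In hearts it was 51.9, 54.9, 47.4 and 49.5 CPM against 11.3, 9.61 and 10.1 CPM, so that every library followed its label, with 73.4% of the 31-base words of Hmox2 shared with other genes. The summed endothelial markers were 2249 to 3305 CPM in Hmox2+/+ ECs and 3871 to 4754 CPM in Hmox2-/- ECs, above the 607 to 828 CPM of hearts. EC libraries also held fibroblast markers (3258 to 7010 CPM) and adipocyte markers (3519 to 5386 CPM, against at most 7.81 CPM in hearts), so they were not endothelial RNA alone. Cardiomyocyte markers were 86.9 to 341 CPM in Hmox2+/+ ECs and 7.71 to 10.1 CPM in Hmox2-/- ECs, and in hearts 61155 to 71095 CPM. Smooth muscle markers were 2590 to 4997 CPM and 836 to 2760 CPM in the EC groups. In bulk RNA, fewer cells of a type and less RNA per cell cannot be told apart. The Y-linked Ddx3y was 0.768 CPM in EC KO 2, 0.676 CPM in EC KO 3 and at 46.7 CPM or more in the other 11 libraries, which sets these 2 libraries apart from the remaining mice. Together 4 Y-linked genes, Ddx3y among them, summed to 4.84 and 5.24 CPM in these 2 and to 112.6 CPM or more in the others. No Hmox2+/+ EC library was low, so in ECs this difference cannot be fully told apart from genotype.

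A gene was called when its Benjamini-Hochberg adjusted p from edgeR's quasi-likelihood test was at most 0.05 and its log2 fold change at least 1 in either direction. By this rule 3 of the 10 genes were called higher and 7 lower in ECs, where 5.39% and 3.89% of all genes tested were called higher and lower. In heart the counts were again 3 and 7, with 2.66% of all genes called higher and 4.05% lower. Calls in the same direction in both tissues were made for 0.427% of genes (higher) and 0.502% (lower). In all 10 genes every Hmox2-/- library lay beyond every Hmox2+/+ library of its tissue, which was so, in 1 direction, for 7.50% of all genes tested in both. Because the members were chosen on these contrasts, nothing can be read from these counts.

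Of 124 genes called the same way in both tissues, 68 had under 20% of their 31-base words in other genes, and the members are 10 of these, leaving 58 that are not described here. Nearest to the limits among the members were Kif1a, with a log2 fold change of -1.02 in heart, and Uqcc6, with 19.6% of its words shared. By transcript the share of Uqcc6 ran from 16.0% (Uqcc6-204) to 35.5% (Uqcc6-203). Zfp982, with 19.2% shared, was called in both tissues but is no member, and Capza1, at 23.6%, was the nearest gene beyond the word limit. Chromosome 1 held 11 of the 124, which is 1.41% of its genes tested in both tissues, against 0.929% of all genes. Chromosome 16 held 4 of the 124, Hmox2 among them (0.962%), and the highest share was that of chromosome 3 (2.36%).

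**Figure D1:**
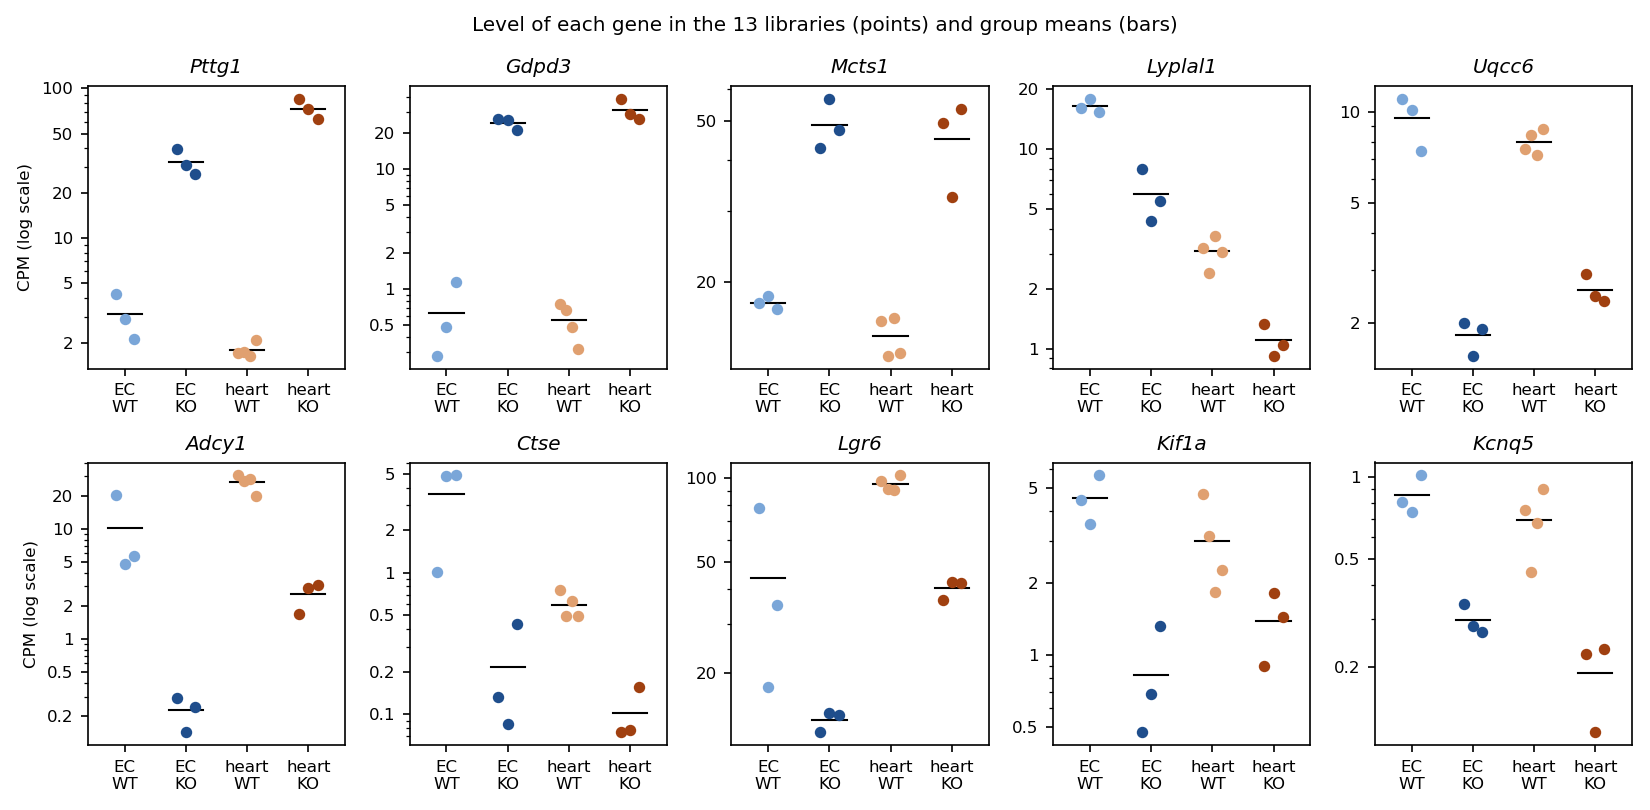
Level of each of the 10 genes in the 13 libraries, in CPM on a log axis. Points are libraries and horizontal bars are means of the 4 groups (EC WT and EC KO, n = 3 each, heart WT, n = 4, heart KO, n = 3). Pttg1, Gdpd3 and Mcts1 are higher in both Hmox2-/- groups, the other 7 genes are lower, and within a tissue no Hmox2-/- point lies among the Hmox2+/+ points.

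Pttg1, the securin gene, had low levels in Hmox2+/+ mice and was many times higher in Hmox2-/- mice. Its level was 4.27, 2.88 and 2.14 CPM in ECs of Hmox2+/+ mice and 39.1, 30.9 and 26.9 CPM in ECs of Hmox2-/- mice. The heart levels were 1.70, 1.74, 1.64 and 2.08 CPM against 85.2, 72.4 and 62.1 CPM. All 6 Hmox2-/- libraries stood far above all 7 Hmox2+/+ libraries. The mean of Hmox2-/- libraries was 10.4 times that of Hmox2+/+ libraries in ECs (32.3 ± 6.25 against 3.10 ± 1.08 CPM, mean ± SD) and 40.9 times in heart (73.3 ± 11.6 against 1.79 ± 0.196 CPM). The fitted log2 fold changes were 3.42 ± 0.27 (SE) in ECs and 5.33 ± 0.16 in heart.

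The tissue in which Pttg1 was higher differed between the genotypes. In Hmox2+/+ mice the heart level was 0.579 times the EC level, and in Hmox2-/- mice it was 2.27 times the EC level. The heart to EC comparison used no contrast between genotypes, but it used the libraries on which the gene was chosen. In Hmox2-/- mice the log2 difference was 1.19 ± 0.17 (SE), with an adjusted p of 3.06e-04 by edgeR's quasi-likelihood test. In Hmox2+/+ mice it was -0.81 ± 0.30 with an edgeR adjusted p of 0.0338, which missed the fold limit of a call.

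Most Pttg1 counts were assigned to Pttg1-202 in ECs of both genotypes (77.3% in Hmox2+/+ and 60.8% in Hmox2-/-) and 50.6% were in Hmox2-/- hearts. In Hmox2-/- mice Pttg1-203 held 15.5% in ECs and 27.3% in hearts, and Pttg1-205 held 11.9% and 19.4%. Pttg1-204 made up 9.81% in Hmox2-/- ECs and 1.62% in Hmox2-/- hearts. The estimated counts of all 4 transcripts were thus higher in Hmox2-/- libraries of both tissues. Pttg1-202 has no word of its own, and only 4.85% of the words of Pttg1-203 and 4.17% of those of Pttg1-205 are their own. How the counts were split among Pttg1-202, Pttg1-203 and Pttg1-205 therefore depends on how kallisto divided shared reads. For Pttg1-204 the part was 39.1%. Shares in Hmox2+/+ hearts rest on few counts, with Pttg1-202 ranging from 0 to 27.4 counts a library.

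The other genes of chromatid cohesion and cell division did not move with Pttg1. Of 15 other genes for separase, cohesin and their regulators, 0 of 15 tested passed an adjusted p of 0.05 in ECs, with a median log2 fold change of 0.03. Without a fold limit, 10% and 8.06% of all genes passed as higher and lower in ECs, and 17.2% and 16.2% in heart. In heart 1 of 14 rose and 6 fell, with a median of -0.28. Among them the cohesin subunit Stag2 fell by 0.48 and the cohesin loader Nipbl fell by 0.56 on the log2 scale, while the securin-interacting Pttg1ip rose by 0.32, and none reached a fold change of 1. Of 18 proliferation genes, 0 passed in ECs, where their median was -1.15 against -0.02 for all genes. In heart 2 of 13 tested were called lower, Mki67 (-1.47 ± 0.31, edgeR adjusted p 0.00519) and Cenpf (-1.69 ± 0.14, edgeR adjusted p 1.70e-05), and 0 were higher.

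Gdpd3, the lysophospholipase D, had the largest fold change of the members in heart and came after Adcy1 in ECs. In ECs its level was 0.279, 0.484 and 1.15 CPM in Hmox2+/+ mice and 26.2, 25.6 and 21.3 CPM in Hmox2-/- mice. In heart tissue it was 0.757, 0.671, 0.483 and 0.317 CPM against 38.6, 29.0 and 26.5 CPM. The genotypes were far apart in both tissues, with ratios of the means of 38.2 in ECs and 56.3 in heart. The fitted log2 fold changes were 5.26 ± 0.41 in ECs and 5.92 ± 0.24 in heart. The tissues differed little within a genotype, with heart against EC log2 differences of -0.32 ± 0.56 in Hmox2+/+ mice (edgeR adjusted p 0.633) and 0.37 ± 0.16 in Hmox2-/- mice (edgeR adjusted p 0.0726).

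The counts that appeared in Hmox2-/- mice were assigned mainly to the protein-coding transcript. Gdpd3-201, the only protein-coding transcript of the 6 listed, held 75.3% of the counts in Hmox2-/- ECs and 77.2% in Hmox2-/- hearts, with 519 to 803 counts a library. In Hmox2+/+ libraries it had 0 to 7.67 counts. Gdpd3-202, annotated as a retained intron, held 16.1% and 14.7% in the Hmox2-/- groups.

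Enzymes that act beside Gdpd3 moved much less. Of the 8 other glycerophosphodiester phosphodiesterase and N-acylethanolamine genes tested, 2 rose in ECs and 4 in heart at an adjusted p of 0.05, 0 fell, and 0 were called. Gdpd1, which also encodes a lysophospholipase D, rose by 0.76 in ECs and 0.68 in heart on the log2 scale, and Naaa, the acid amidase that breaks down N-acylethanolamines, by 0.59 and 0.49. Gde1 (0.74) and Abhd4 (0.34), which act in N-acylethanolamine synthesis, passed in heart alone. Whether the tissues differ in these genes was not tested.

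Mcts1, the partner of Denr in translation reinitiation, was about equally high in both tissues of Hmox2-/- mice. In ECs it was 17.8, 18.5 and 17.1 CPM in Hmox2+/+ mice and 42.8, 56.6 and 47.4 CPM in Hmox2-/- mice. Hearts had 16.1, 13.2, 16.3 and 13.4 CPM against 49.4, 32.5 and 53.3 CPM. Every Hmox2-/- library was above every Hmox2+/+ library, and heart KO 2 was the lowest of the Hmox2-/- libraries. The ratios of the means were 2.74 and 3.06, and the fitted log2 fold changes 1.49 ± 0.13 and 1.62 ± 0.17. Between tissues the log2 difference was -0.32 ± 0.12 in Hmox2+/+ mice (edgeR adjusted p 0.0336, not called) and -0.12 ± 0.20 in Hmox2-/- mice (edgeR adjusted p 0.605). Mcts1-201 held 72.9% to 80.3% of the counts in every group. Mcts1 lies on chromosome X, and its level was 56.6 and 47.4 CPM in the EC KO libraries of low Ddx3y and 42.8 CPM in the third.

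The genes that work with Mcts1 moved little. Of 13 other start codon and recycling factors, 0 passed in ECs, and in heart 4 rose and 2 fell without reaching a fold change of 1. The related Mcts2 rose by 0.71 and Eif2d, which has the same domain architecture as the Mcts1 and Denr pair, by 0.49 in heart, whereas Denr itself was at 0.15 and did not pass. The neighbours of Mcts1 on chromosome X did move with it. Of 6 other genes tested within 1 Mb, 3 were called higher in both tissues, Lamp2 (log2 fold change 1.97 in ECs and 1.12 in heart), Cul4b (1.29 and 1.15) and C1galt1c1 (1.99 and 1.89). C1galt1c1, a chaperone for O-glycan synthesis, rose from 9.64 ± 1.26 to 37.2 ± 2.34 CPM in ECs and from 6.72 ± 1.35 to 24.7 ± 6.19 CPM in heart.

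Lyplal1, the thioesterase, was lower in Hmox2-/- mice to nearly the same degree in both tissues. Its level was 16.2, 17.9 and 15.4 CPM in Hmox2+/+ ECs and 7.98, 4.35 and 5.49 CPM in Hmox2-/- ECs. In hearts it was 3.22, 2.41, 3.67 and 3.08 CPM against 1.34, 0.926 and 1.05 CPM. The groups did not overlap, and Hmox2-/- means were 36.0% of Hmox2+/+ means in ECs and 35.7% in heart. The fitted log2 fold changes were -1.43 ± 0.22 and -1.48 ± 0.26. Lyplal1 was higher in EC libraries than in hearts in both genotypes. The heart against EC log2 difference was -2.46 ± 0.17 in Hmox2+/+ mice (edgeR adjusted p 7.55e-07) and -2.42 ± 0.30 in Hmox2-/- mice (edgeR adjusted p 1.08e-04). EC libraries also held fibroblast and adipocyte markers, whose part in this difference was not tested. Of 8 related thioesterase genes, 1 rose in ECs and 3 in heart, 0 fell and 0 were called.

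Uqcc6, the complex III assembly factor, was 11.1, 10.2 and 7.48 CPM in Hmox2+/+ ECs and 2.0, 1.56 and 1.92 CPM in Hmox2-/- ECs. The heart levels were 7.57, 8.41, 7.20 and 8.82 CPM against 2.91, 2.47 and 2.37 CPM. All Hmox2-/- libraries were below all Hmox2+/+ libraries, with means of 19.1% in ECs and 32.3% in heart. The fitted log2 fold changes were -2.35 ± 0.22 and -1.64 ± 0.17. Within a genotype the tissues were close, with heart against EC log2 differences of -0.29 ± 0.17 (edgeR adjusted p 0.158) in Hmox2+/+ mice and 0.50 ± 0.24 (edgeR adjusted p 0.0943) in Hmox2-/- mice.

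The lower Uqcc6 counts were assigned to a subset of its transcripts. Uqcc6-201, Uqcc6-202 and Uqcc6-204 contain a first-exon segment of 129 bases (chr10:82458799-82458927 on GRCm39, minus strand) that Uqcc6-203 and Uqcc6-205 lack. Counts of the 3 transcripts with the segment summed to 8.20 ± 2.0 CPM in Hmox2+/+ ECs and 0.737 ± 0.267 CPM in Hmox2-/- ECs, and to 7.04 ± 0.898 and 1.16 ± 0.279 CPM in hearts. The 2 transcripts without it summed to 1.38 ± 0.489 and 1.08 ± 0.318 CPM in ECs, where the genotypes overlapped, and to 0.960 ± 0.182 and 1.43 ± 0.0955 CPM in hearts, where Hmox2-/- libraries were higher.

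The share of Uqcc6 counts in transcripts with the segment went from 85.1% to 40.6% in ECs and from 87.8% to 44.3% in heart. Uqcc6-202 had 0 counts in all 6 Hmox2-/- libraries and up to 30.3 counts in Hmox2+/+ ECs. This grouping was made after the transcripts' values were seen and is a description. Uqcc6-201 has no 31-base word of its own, and 32.4% of its words are also in other genes. Its counts therefore depend on how kallisto divided shared reads. Uqcc6 shares 16.1% of its words with the lncRNA Gm66230, which was 5.28 ± 0.866 and 4.78 ± 0.502 CPM in the EC groups and 9.24 ± 1.33 and 10.5 ± 1.87 CPM in the heart groups. The gene range of Uqcc6 also overlaps that of Tdg.

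**Figure D2:**
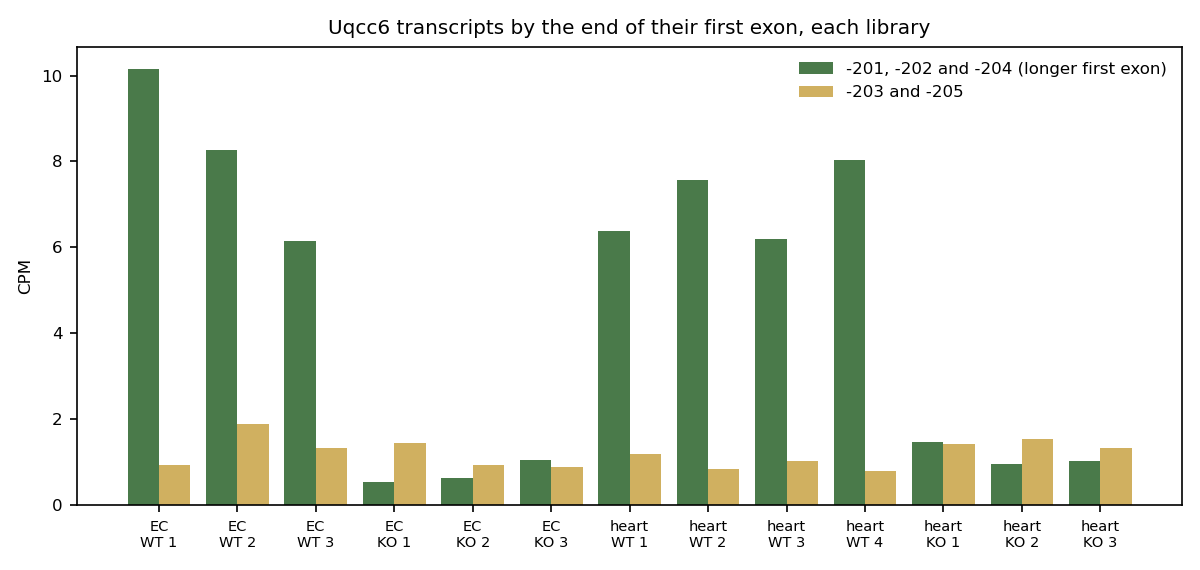
CPM of Uqcc6 transcripts in each of the 13 libraries, with 1 pair of bars a library on an axis from 0. The bars for Uqcc6-201, Uqcc6-202 and Uqcc6-204, which share the longer first exon, are 6.15 CPM or more in every Hmox2+/+ library and 1.48 CPM or less in every Hmox2-/- library, while the bars for Uqcc6-203 and Uqcc6-205 range from 0.792 to 1.89 CPM over all libraries.

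Few of the other genes of complex III passed the test in ECs, as lower, and most passed in heart, as higher. The difference between the tissues was not tested. Of 17 other assembly factors and subunits, 3 fell in ECs, Uqcc1 (-0.79), Uqcrq (-0.76) and Uqcr11 (-0.80), with a median log2 fold change of -0.49, and 0 rose. In heart 15 of the same 17 rose and 0 fell, with a median of 0.51. The assembly factor Uqcc2 was the only one of the 17 that was called in heart (1.07 ± 0.17, edgeR adjusted p 0.00156), and the subunits Uqcrh and Uqcrq were at 0.91 and 0.84. Uqcc6 was thus lower in Hmox2-/- hearts in which most of the genes for the complex it helps to assemble were higher.

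Adcy1, the calcium-stimulated adenylyl cyclase, was the member with the largest loss. Its level was 20.2, 4.82 and 5.71 CPM in Hmox2+/+ ECs and 0.290, 0.142 and 0.243 CPM in Hmox2-/- ECs. Hearts had 30.7, 27.3, 28.3 and 19.9 CPM against 1.68, 2.93 and 3.11 CPM. The genotypes were apart in both tissues, although EC WT 1 was well above the other Hmox2+/+ EC libraries. Hmox2-/- means were 2.20% of Hmox2+/+ means in ECs and 9.68% in heart, and the fitted log2 fold changes were -5.44 ± 0.71 and -3.36 ± 0.22. Without EC WT 1 the change in ECs was -4.48.

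Adcy1 was called higher in heart than in ECs in both genotypes, but in Hmox2+/+ mice the tissues overlapped. There EC WT 1 (20.2 CPM) was above heart WT 4 (19.9 CPM), and mean TPM was 1.33 ± 0.908 in ECs and 1.62 ± 0.321 in heart. The heart against EC log2 difference was 1.33 ± 0.44 in Hmox2+/+ mice (edgeR adjusted p 0.0216) and 3.48 ± 0.41 in Hmox2-/- mice (edgeR adjusted p 8.11e-05), and the first missed the threshold without EC WT 3 (1.06, edgeR adjusted p 0.0708). Without EC WT 1 it was 2.31 (edgeR adjusted p 5.27e-06). The mean EC level was 38.6% of the heart level in Hmox2+/+ mice and 8.75% in Hmox2-/- mice. For the summed cardiomyocyte markers the EC level was 0.273% and 0.0134% of the heart level, and for the smooth muscle markers 188% and 52.7%. EC WT 1 had the highest smooth muscle sum (4997 CPM) and the lowest cardiomyocyte sum (86.9 CPM) of the Hmox2+/+ ECs. In hearts the smooth muscle sums were 1868 to 2215 CPM in Hmox2+/+ and 2420 to 3086 CPM in Hmox2-/- libraries, the reverse of Adcy1. The part of either marker set in the Adcy1 levels was not tested. Adcy1-201 held 88.1% to 98.2% of the counts in every group.

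Other adenylyl cyclases changed less and not together. Of 8 tested in ECs, Adcy4 rose by 0.88 on the log2 scale and Adcy9 was called lower (-1.5 ± 0.27, edgeR adjusted p 0.013). Of 7 tested in heart, Adcy6 and Adcy7 fell by 0.47 and 0.66 and 0 were called. Camk2b, which encodes a calmodulin-dependent kinase and lies 996968 bases from Adcy1, was the 1 of 15 tested neighbours within 1 Mb called the same way in both tissues (-1.93 in ECs and -1.12 in heart). It fell from 14 ± 3.66 to 3.58 ± 1.21 CPM in ECs and from 21.3 ± 4.36 to 9.91 ± 0.710 CPM in heart.

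Lgr6, the R-spondin receptor, was lower in Hmox2-/- mice, clearly so in heart. Its level was 78.0, 17.8 and 35.2 CPM in Hmox2+/+ ECs and 12.3, 14.4 and 14.2 CPM in Hmox2-/- ECs. In heart tissue it was 97.7, 90.9, 90.9 and 102 CPM against 36.5, 42.3 and 41.9 CPM. The heart groups were tight and far apart, while in ECs the lowest Hmox2+/+ library was only a little above the Hmox2-/- libraries. Hmox2-/- means were 31.2% of Hmox2+/+ means in ECs and 42.2% in heart, with log2 fold changes of -1.64 ± 0.47 and -1.25 ± 0.097. The EC value rested on EC WT 1, which also had the highest smooth muscle sum, and it was -0.92 ± 0.27 without that library. In hearts the smooth muscle sums were higher in Hmox2-/- libraries, the reverse of Lgr6, and their part was not tested.

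Lgr6 was higher in heart than in ECs in both genotypes, by 1.09 ± 0.38 in Hmox2+/+ mice (edgeR adjusted p 0.0279) and 1.56 ± 0.12 in Hmox2-/- mice (edgeR adjusted p 7.70e-06) on the log2 scale. The first call was lost without EC WT 2 or 3 or heart WT 1, 2 or 4, with differences of 0.74 to 1.12, and without EC WT 1 the difference was 1.83 (edgeR adjusted p 9.82e-05). Lgr6-201 held 89.9% to 95.6% of the counts. Of the other R-spondin receptors, ligands and partners, 0 of 4 tested passed in heart. In ECs 1 of 6 fell, the WNT target and inhibitor Axin2 (-1.96 ± 0.28, edgeR adjusted p 0.00651).

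Ctse, cathepsin E, had low levels in EC libraries and lower ones in hearts, and in Hmox2-/- mice it was near the limit of detection. Its level was 1.01, 4.87 and 4.89 CPM in Hmox2+/+ ECs and 0.132, 0.0853 and 0.432 CPM in Hmox2-/- ECs. In hearts it was 0.757, 0.492, 0.628 and 0.498 CPM against 0.0745, 0.0772 and 0.155 CPM. The groups did not overlap, and EC WT 1 was the lowest of the Hmox2+/+ ECs. Hmox2-/- means were 6.03% of Hmox2+/+ means in ECs and 17.2% in heart, with log2 fold changes of -3.98 ± 0.79 and -2.41 ± 0.54. The heart value rests on 8 counts in the Hmox2-/- libraries and 39 in the Hmox2+/+ libraries, a scaled ratio of 5.43 with an exact 95% interval of 2.50 to 13.5 that covers counting error only.

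In Hmox2+/+ mice Ctse was lower in heart than in ECs by 2.69 ± 0.54 on the log2 scale (edgeR adjusted p 0.00141), and in Hmox2-/- mice it had too few counts to be tested. In EC WT 1, 2 and 3 the mesothelial markers summed to 19.8, 95.2 and 99.9 CPM, and to 3.58 to 4.03 CPM in Hmox2-/- ECs. Ctse had the same order in EC WT 1, 2 and 3 and was also lower in Hmox2-/- ECs. Among the Hmox2-/- EC libraries its order was not that of the mesothelial markers. In hearts they were 28.4 to 33.1 CPM in Hmox2+/+ and 48.0 to 81.2 CPM in Hmox2-/- libraries, the reverse of Ctse. Their part in the result was not tested. Other cathepsins rose or did not pass, with 3 of 12 tested higher in ECs, 7 of 11 higher in heart and 0 lower in either tissue. The cysteine protease Ctsh was called in heart (1.01 ± 0.18, edgeR adjusted p 0.00235) and was at 0.78 in ECs. Macrophage markers were also higher in Hmox2-/- libraries, with sums of 279 to 360 CPM in Hmox2+/+ ECs and 480 to 774 CPM in Hmox2-/- ECs, and of 148 to 215 and 250 to 408 CPM in hearts. Of the 6 markers 4 passed as higher in ECs and 3 in heart, 0 passed as lower, and none was at 0 in any group. Their part in the levels of the cathepsins was not tested.

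Kif1a, the axonal kinesin, was lower in Hmox2-/- mice by a wider margin in ECs than in hearts. Its level was 4.44, 3.54 and 5.64 CPM in Hmox2+/+ ECs and 0.474, 0.683 and 1.32 CPM in Hmox2-/- ECs. The heart levels were 4.73, 3.13, 1.84 and 2.26 CPM against 0.894, 1.81 and 1.44 CPM. In ECs the genotypes were well apart, but in hearts the highest Hmox2-/- library was just below the lowest Hmox2+/+ library. Hmox2-/- means were 18.2% of Hmox2+/+ means in ECs and 46.2% in heart, and the log2 fold changes were -2.41 ± 0.41 and -1.02 ± 0.35.

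The tissues did not pass the test for Kif1a in either genotype, with heart against EC log2 differences of -0.72 ± 0.32 in Hmox2+/+ mice (edgeR adjusted p 0.0668) and 0.73 ± 0.46 in Hmox2-/- mice (edgeR adjusted p 0.179). Neuron and Schwann cell markers summed to 5.60 to 8.28 CPM in Hmox2+/+ ECs and 6.51 to 8.27 CPM in Hmox2-/- ECs, and to 11.4 to 17.0 and 8.62 to 11.9 CPM in hearts, ranges that overlap in both tissues. Of the 9 markers 4 were tested in each tissue. Tubb3, a neuronal tubulin, was called higher in ECs (2.64 ± 0.75, edgeR adjusted p 0.0475), and none passed in heart. Th and Dbh, enzymes of catecholamine synthesis, were at 0 in every Hmox2-/- EC library, and Th was at 0 in all hearts. Other kinesin-3 motors that passed were lower. They were Kif1b (-0.79) and Kif1c (-0.70) of 6 tested in ECs, and Kif13b (-0.94), Kif1b (-0.78) and Kif13a (-0.47) of 5 tested in heart, with 0 called.

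Kcnq5, the potassium channel, had few counts in every library and fewer in Hmox2-/- mice. Its level was 0.810, 0.739 and 1.01 CPM in Hmox2+/+ ECs and 0.342, 0.284 and 0.270 CPM in Hmox2-/- ECs. Hearts had 0.757, 0.447, 0.677 and 0.905 CPM against 0.224, 0.116 and 0.233 CPM. The genotypes did not overlap, and Hmox2-/- means were 35.0% of Hmox2+/+ means in ECs and 27.4% in heart. The log2 fold changes were -1.47 ± 0.38 and -1.82 ± 0.49. Heart and ECs did not pass the test of a difference in Hmox2+/+ mice (-0.34 ± 0.39, edgeR adjusted p 0.452) or in Hmox2-/- mice (-0.64 ± 0.47, edgeR adjusted p 0.251).

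In ECs the direction for Kcnq5 depended on the unit. Its mean TPM (a unit that also divides counts by transcript length) was 0.384 in Hmox2-/- ECs and 0.261 in Hmox2+/+ ECs, opposite to the counts. Kcnq5-204 had 3.14 to 6 counts in each Hmox2-/- EC library and at most 1 in any Hmox2+/+ library, and held 39.7% of the few counts in Hmox2-/- ECs. Among the KCNE subunits, which pair with KCNQ channels, Kcne3 was called higher in ECs (1.37 ± 0.35, edgeR adjusted p 0.0345) and Kcne1 lower in heart (-1.12 ± 0.18, edgeR adjusted p 0.00153), while Kcne4 did not pass in either tissue (0.29 and -0.10).

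**Figure D3:**
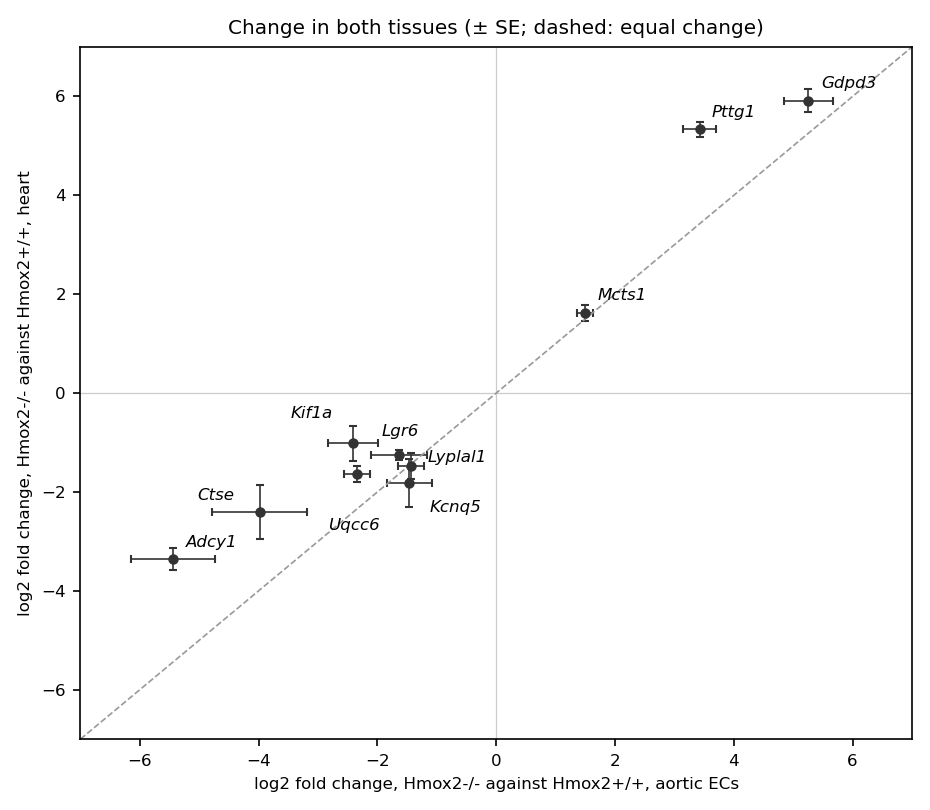
Log2 fold change of the 10 genes, Hmox2-/- against Hmox2+/+, in aortic ECs (horizontal axis) and heart (vertical axis). Points are fitted values, bars are ± SE and the dashed line marks equal change. All points lie in the lower left or upper right quadrant because the genes were chosen for this, and Pttg1, Adcy1, Kif1a and Ctse lie farthest from the line.

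The size of the change was unequal between the tissues for some members. The heart minus EC difference in log2 fold change was 1.95 for Pttg1, which was higher in Hmox2-/- mice to a larger degree in heart. It was 2.11 for Adcy1, 1.59 for Ctse, 1.41 for Kif1a and 0.75 for Uqcc6, whose losses were larger in ECs. For Gdpd3 (0.70), Lgr6 (0.43), Mcts1 (0.17) and Kcnq5 (-0.33) the difference was smaller, and for Lyplal1 it was close to 0. Without EC WT 1 the difference was 1.16 for Adcy1 and -0.28 for Lgr6, whose direction thus turned, and without EC WT 3 it was -0.04 for Gdpd3. Over all alternatives that of Lyplal1 ran from -0.42 to 0.27, that of Ctse reached 2.56, and that of Kif1a ran from 1.13 to 2.21 and that of Kcnq5 from -2.41 to -0.07. These differences come from the contrasts that chose the genes and were not tested.

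**Figure D4:**
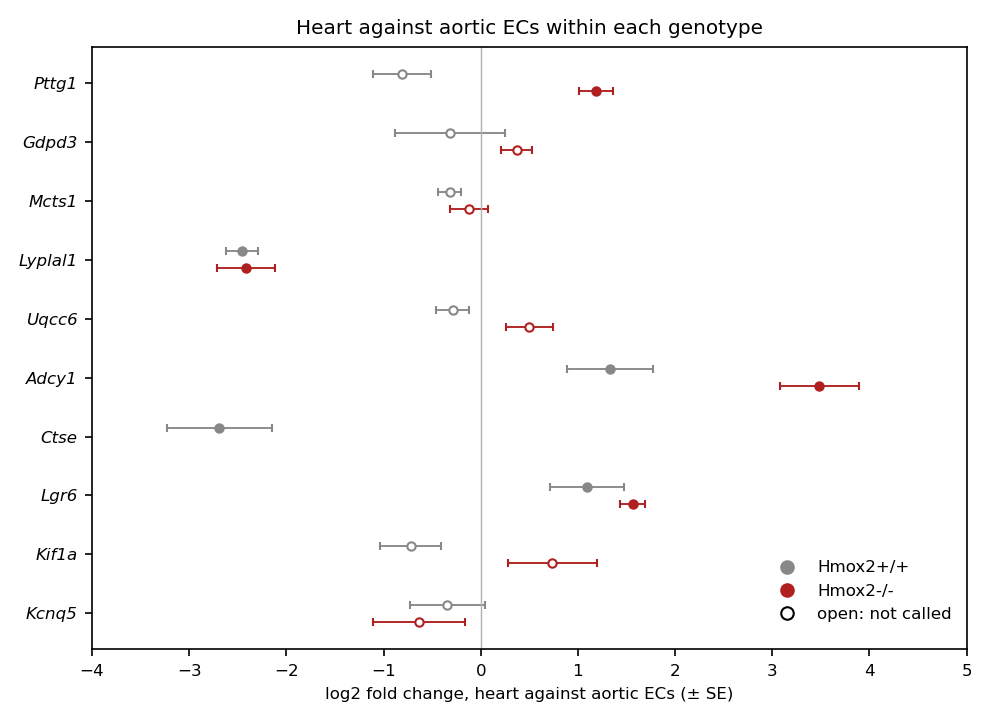
Log2 fold change of heart against aortic ECs for each gene, in Hmox2+/+ mice (grey) and Hmox2-/- mice (red), with ± SE bars. Filled points were called and open points were not, and Ctse has no point in Hmox2-/- mice because its counts were too low to test. Lyplal1 lies near -2.4 in both genotypes, Adcy1 and Lgr6 lie to the right in both, and Pttg1 lies left of 0 in Hmox2+/+ mice and right of 0 in Hmox2-/- mice.

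The contrast of heart with ECs inside 1 genotype did not choose the members. It uses the same libraries, however, so its tests are not independent of that choice. In Hmox2+/+ mice 2 of the 10 genes were called higher in heart (Adcy1 and Lgr6) and 2 lower (Lyplal1 and Ctse). Of all genes tested 17.0% were called higher and 22.6% lower in this comparison, so the members' share was near the background. In Hmox2-/- mice 3 of 9 tested were called higher (Pttg1, Adcy1 and Lgr6) and 1 lower (Lyplal1), against 20.6% and 27.0% of all genes.

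Per transcript length, Mcts1 led the members in Hmox2+/+ mice, with a mean of 46.3 ± 7.74 TPM in ECs and 19.4 ± 2.38 TPM in heart. Uqcc6 followed in ECs (29.6 ± 4.91 TPM) and Uqcc6 and Lgr6 in heart (12.5 ± 1.68 and 12.4 ± 1.5 TPM), where these 2 did not differ beyond their spread. In Hmox2-/- mice the 3 genes that were higher stood at the top. They were Mcts1 (129 ± 10 TPM), Pttg1 (79.0 ± 20.2 TPM) and Gdpd3 (42.3 ± 5.30 TPM) in ECs, and Pttg1 (118 ± 13.5 TPM), Mcts1 (70.6 ± 18.8 TPM) and Gdpd3 (33.7 ± 4.75 TPM) in heart. Adcy1 had the lowest mean in Hmox2-/- ECs (0.0284 ± 0.0105 TPM), and in Hmox2-/- hearts Kcnq5 (0.0395 ± 0.00922 TPM) and Ctse (0.0473 ± 0.0239 TPM) were lowest and overlapped.

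Over the 4 groups Pttg1 ran from heart KO through EC KO and EC WT to heart WT, with every neighbouring pair of groups apart. Gdpd3 had the same order, but its Hmox2+/+ groups overlapped. Mcts1 was highest in EC KO and heart KO, which overlapped, then EC WT, then heart WT. Lyplal1 followed tissue before genotype (EC WT, EC KO, heart WT, heart KO), with all neighbours apart.

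For the remaining members genotype came first or the groups ran into each other. Uqcc6 and Adcy1 had both Hmox2+/+ groups on top, overlapping, then heart KO and EC KO apart from each other. Kif1a had the same order, with both pairs of groups of 1 genotype overlapping. Kcnq5 ran from EC WT and heart WT, which overlapped, to EC KO and heart KO, which were apart. Lgr6 ran from heart WT through EC WT and heart KO, whose libraries overlapped, to EC KO, and Ctse from EC WT through heart WT to EC KO and heart KO, which overlapped.

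**Figure D5:**
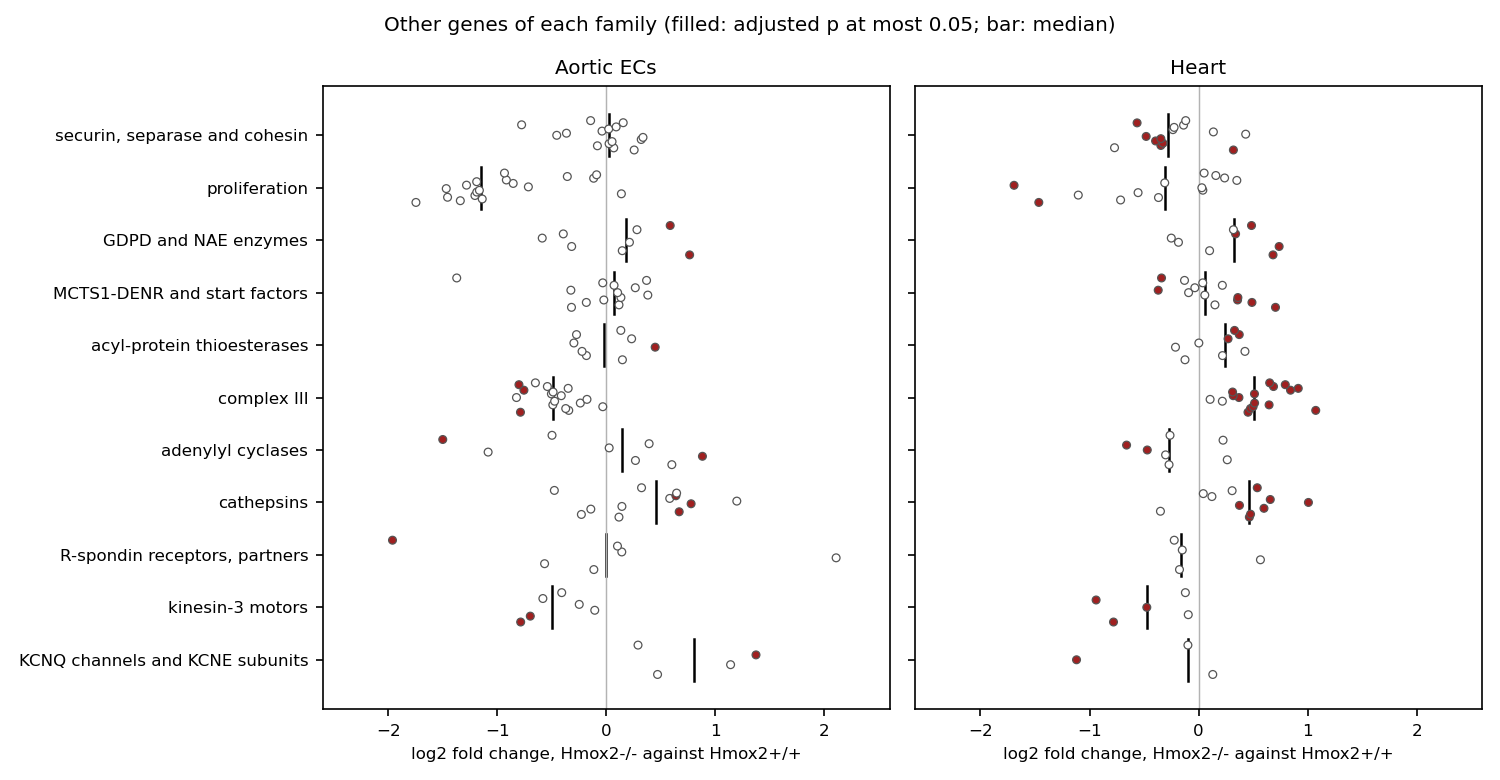
Log2 fold change, Hmox2-/- against Hmox2+/+, of other genes of each member's family or pathway, in aortic ECs (left) and heart (right). Each point is a gene, filled where the adjusted p was at most 0.05, and bars are medians. Complex III genes lie left of 0 in ECs and right of 0 in heart, and no other gene shown comes near the 5.92 of Gdpd3 or the -5.44 of Adcy1.

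Within 1 Mb of the members, 8 of 208 tested genes (3.85%) were called the same way in both tissues, against 0.929% of all genes. They lay near 3 members only, 3 near Mcts1, 1 near Adcy1 and 4 of 25 near Uqcc6, and the other 7 members had none. Near Uqcc6 they were Tdg (-1.37 and -1.61 in ECs and heart on the log2 scale), the zinc finger gene Gm4924 (1.47 and 1.58), Gm3055 (-3.48 and -4.48) and Gm32687 (-3.11 and -2.97). Tdg shares 66.3% of its words with other genes, Gm3055 96.5% and Gm32687 93.2%, so the values of these 3 are uncertain. Ctse and Lgr6 lie 3307796 bases apart on chromosome 1.

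The genes whose levels over the 13 libraries were most like a member's were found by the correlation of log2 CPM (Pearson's r). The libraries share genotypes and tissues, so these values describe the pattern only. For Pttg1 they were Trap1 (r = 0.993), Gdpd3 (0.973) and Manba (0.965), and for Gdpd3 they were Trap1 (0.979), Zfp982 (0.979) and Pttg1. Trap1, a mitochondrial chaperone gene, lies on chromosome 16 (3856215 to 3895716), 648500 bases from Hmox2. It was 13 ± 0.504 CPM in Hmox2+/+ ECs and 107 ± 4.79 CPM in Hmox2-/- ECs, and 7.99 ± 1.13 and 212 ± 9.90 CPM in hearts. Among the genes compared, the one most like both Pttg1 and Gdpd3 by Pearson's r therefore lies within 1 Mb of Hmox2, whereas Pttg1 and Gdpd3 lie on other chromosomes. By Spearman's rho (0.934 for Pttg1 and 0.813 for Gdpd3) Trap1 was not among the 3 genes nearest to either.

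For Mcts1 the nearest patterns were those of Zfp982 (0.965), its neighbour C1galt1c1 (0.957) and Rab6b (0.955). Lyplal1 was followed by Ifnar1 (0.966), Sntb1 (0.959) and Orc6 (0.959). Uqcc6 was followed by Parp3 (0.956), Gnao1 (0.95) and Cox18 (0.946), and Kcnq5 by Cpsf4 (0.940), Pdlim3 (0.931) and Cox18 (0.918). Adcy1 was followed by Thrb (0.957), the receptor for thyroid hormone, Enpep (0.951) and Pdzd2 (0.948).

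Lgr6 was followed by Ctc1 (0.951), Rhoq (0.948) and Foxn3 (0.947). For Ctse (Nt5e 0.913, Lrmda 0.909 and Nod2 0.903) and Kif1a (Fras1 0.892, Fat1 0.880 and Ube4b 0.879) the nearest patterns were less close. No member other than Pttg1 and Gdpd3 had a fellow member among its 3 nearest genes.

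Without EC KO 2 and EC KO 3, the libraries of low Ddx3y, each member had the same direction in ECs, with EC KO 1 as the lone Hmox2-/- library. The log2 fold changes were then 3.70 for Pttg1, 5.37 for Gdpd3, 1.30 for Mcts1, -1.01 for Lyplal1, -2.22 for Uqcc6, -5.09 for Adcy1, -4.70 for Ctse, -1.79 for Lgr6, -3.22 for Kif1a and -1.28 for Kcnq5. Pttg1 and Gdpd3 were then the 2 members called.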

How the data were processed

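The authors pseudoaligned paired reads with kallisto, 0.44.0 per the labels, whose default does not use strand, and deposited estimated counts, effective lengths and TPM per transcript for each library, without pooling or normalization between libraries. TPM values were deposited as kallisto made them and served for comparisons between genes. The methods name a GENCODE index for GRCm39, while the submitters' processing notes list mm10 and GRCh38.p13. Of 118489 transcripts, 115140 (97.2%) were matched by identifier without version to GENCODE M39, and unmatched ones held at most 1.01% of counts.

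Per gene, estimated counts were added up, rounded, filtered with filterByExpr (minimum count 10), scaled by TMM and tested with edgeR 4.0.16 in R 4.3.3 (quasi-likelihood F-test, Benjamini-Hochberg over all genes tested), using only the libraries compared. Each SE is the log2 fold change divided by the root of its F statistic. The share of 31-base words that a gene has in common with others measured copies. Genes named are Hmox2, the members, family genes called in either tissue with their partners, the 3 genes most like each member, and genes within 1 Mb called the same way in both tissues. The result of 1 gene that this rule names is not reported here. Members and lists were chosen with earlier results of these data known. Likeness used log2(CPM + 1). Between libraries of a group the biological coefficient of variation came to 0.241 (ECs) and 0.149 (heart). The fits were tested on simulated data. Alternatives were DESeq2 1.42.0, upper-quartile scaling, length-scaled TPM, no filter, a replicate block, all libraries in 1 fit, and leaving out libraries or genes with copies. Replicate numbers were not taken to pair libraries, since same-numbered libraries did not all deviate together. Their r ran from -0.0703 to 0.223 between genotypes and from -0.0317 to 0.235 between tissues within a genotype. The main tests of heart against ECs thus took no account of mice that both tissues may share.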

Additional observations from a re-analysis of the deposited data

Results flagged for a closer look

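Pttg1 differed between the tissues in opposite directions in the 2 genotypes. Its mean level in heart was 0.579 times that in ECs in Hmox2+/+ mice, with all 4 hearts below all 3 EC libraries, and 2.27 times that in ECs in Hmox2-/- mice, with all 3 hearts above all 3 EC libraries. This drew attention because every library of 1 genotype went one way and every library of the other went the opposite way. The difference between the genotypes was not tested, because it is built from the contrasts that chose the gene. In hearts of Hmox2+/+ mice, the 1 group of 4, no library stood apart from the others for any of the 10 genes by Dixon's 95% limit.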

How the results depend on the processing

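In heart Pttg1, Gdpd3, Mcts1, Lyplal1, Uqcc6, Adcy1, Ctse and Lgr6 kept their direction and their calls in each alternative fitted, and in ECs Pttg1 and Gdpd3 did. Without EC KO 2 and EC KO 3 the EC fit called 2 members and 49 genes in all, in place of 10 and 1420, with 1 Hmox2-/- library left that was assumed to vary like the others. Leaving out each library in turn, the EC fit called 7 to 9 members and 532 to 1721 genes (532 without EC KO 3 and 864 without EC KO 2), and the heart fit 8 to 10 members. Kcnq5 in ECs lost its call without any 1 of the 6 libraries, Lgr6 without any but EC WT 2, and Ctse without EC KO 1 or EC KO 2. In heart Kif1a lost its call without any 1 library but heart WT 3 (-0.78 to -1.27 over the alternatives), and Kcnq5 without heart KO 2, while 2 fits could not be made for Kcnq5. Between genotypes the only reversal was Kcnq5 in ECs, at 0.68 with length-scaled TPM. Of values that were not called, heart against ECs passed 0 for Gdpd3 in Hmox2+/+ mice (-0.65 to 0.44) and Mcts1 in Hmox2-/- mice (-0.38 to 0.09), and the heart minus EC difference in fold change did for Gdpd3, Lgr6, Lyplal1 and Mcts1. The count of members with a larger log2 change in heart than in ECs, 5, was 3 to 5 when libraries were left out (3 without EC WT 3). Pttg1 between the tissues of Hmox2-/- mice fell short of the fold limit with upper-quartile scaling (0.93) and without the libraries of low Ddx3y (0.90).

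With the replicate number as a block, 8 members were called in ECs (1389 genes in all) and 8 in heart (696, against 927), and 4 between the tissues of each genotype (5647 and 7107 genes). Lgr6 and Kcnq5 in ECs and Kif1a and Kcnq5 in heart were the members' calls lost. The cause of these changes was not tested. Counting error limits Ctse and Kcnq5, and heart WT 1 has the least depth.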
